A study of Sus scrofa with 12 samples.

Results

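The collagen, laminin and integrin genes were followed across pig oocytes matured in vitro with or without GDNF (glial cell line-derived neurotrophic factor). Members were taken by gene symbol: collagen chains (COL, a number, A, a number), laminin chains (LAMA, LAMB or LAMC and a number) and integrin subunits (ITGA or ITGB with a number or letter code). The rule found 63 of the 11912 genes named on the array, namely 32 collagen chains, 8 laminin chains, 16 integrin alpha subunits and 7 integrin beta subunits. It left out similarly named genes such as COL4A3BP and ITGBL1. Of the members, 43 were read by 1 array feature and 20 by several, which were averaged per gene.

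Collagens are trimers that build fibrils, networks and anchoring structures. Laminins are trimers of an alpha, a beta and a gamma chain and, with type IV collagen, form basement membranes such as the one that surrounds the granulosa layer of the ovarian follicle. Integrins are heterodimers of an alpha and a beta subunit that hold cells to these ligands, and in mouse eggs ITGA6, ITGA9 and ITGB1 have been studied as adhesion molecules of the egg surface.

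The design crossed an oocyte class, SM or LG, with GDNF treatment, in 4 groups: SM control, SM GDNF, LG control and LG GDNF. The labels do not spell out SM and LG. All groups, and the reference, came from crossbred prepubertal gilts and had 44 h of maturation in TCM199 medium with 10% pig follicular fluid, LH, FSH and EGF, after which hyaluronidase and a glass pipette stripped the surrounding cells. Each group had 3 arrays, numbered here by pool, with 1 array of every group on each of 3 slides, 12 arrays in all, and the pools were collected independently according to the design text. That text gives 9 replicates per condition at 3 to an array, whereas the sample labels give 2 per pool and 16 for the reference. The word Clean follows the slide number of LG GDNF 1 and 2 and is not explained. RNA was amplified from an oligo(dT) primer before labelling, and each array compared 1 pool with a reference of oocytes from all groups.

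The deposited value of a gene is a log2 ratio between the channels of an array. The sample carried Cy5 on slide 1 and Cy3 on slides 2 and 3, and whether the deposited ratio runs sample over reference or Cy5 over Cy3 is not settled by the sources used here. Values below are therefore deposited ratios and differences of deposited ratios, without a direction of expression. Each difference was computed within slides 1, 2 and 3 and over slides 2 and 3 alone, where all 8 arrays ran the same way. It was also computed with slide 1 turned, which is the opposite reading. Not every reading is printed for every named gene, and nothing is implied about a reading that is left out. Statements that an array or gene was above 0, below 0, high or low refer to the ratios as deposited. With slide 1 turned, the values of SM control 1, SM GDNF 1, LG control 1 and LG GDNF 1 change sign. A ratio to an oocyte reference also gives no level, so neither which chain is abundant nor whether the oocyte label is borne out by its defining transcripts could be read from these values.

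As deposited, arrays LG control 2 and LG GDNF 3, both on slide 3, stood apart in their marker medians. Results that rest on them are given with and without them. LG control 2 had the widest SD over all genes, 0.735, against 0.394 to 0.490 on the other arrays, LG GDNF 3 among them at 0.475. The median ratio of 13 oocyte markers was 0.72 on LG control 2 and 0.27 on LG GDNF 3, against -0.39 to 0.11 on the other 10. The median of 16 cumulus and granulosa markers was -0.06 and -0.09 on these arrays, against 0.05 to 0.29 elsewhere, and that of 11 theca, stroma, vessel and blood markers ran from -0.12 to 0.10 over all arrays. The oocyte medians of SM control 1 and LG control 1 were -0.29 and -0.39 as deposited. With slide 1 turned they change sign and exceed that of LG GDNF 3. Its cumulus and granulosa median then lies among those of slide 1, so LG GDNF 3 does not stand apart on that reading. The part of these differences in the members' values was not tested. In pools of oocytes, fewer cells of a type and less RNA per cell cannot be told apart.

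Most members lay near the reference on most arrays. The medians of the 63 genes ranged from -0.16 on LG control 2 to 0.01 on SM control 3. Those of all genes ranged from -0.03 on LG control 1 to -0.0007 on SM control 2. The SD of a member about its slide means had a median of 0.205, against 0.222 over all 11912 genes. As deposited, the members' mean ratios were alike from slide to slide, with r = 0.776 between slides 1 and 2, 0.629 between slides 1 and 3 and 0.804 between slides 2 and 3 across the 63 genes. Over all genes the same 3 values were 0.639, 0.614 and 0.590. Both correlations of slide 1 change sign when it is turned, to -0.776 and -0.629 for the members and to -0.639 and -0.614 for all genes. Genes are not independent replicates, and each slide pair shares the reference RNA and the features.

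**Figure D1:**
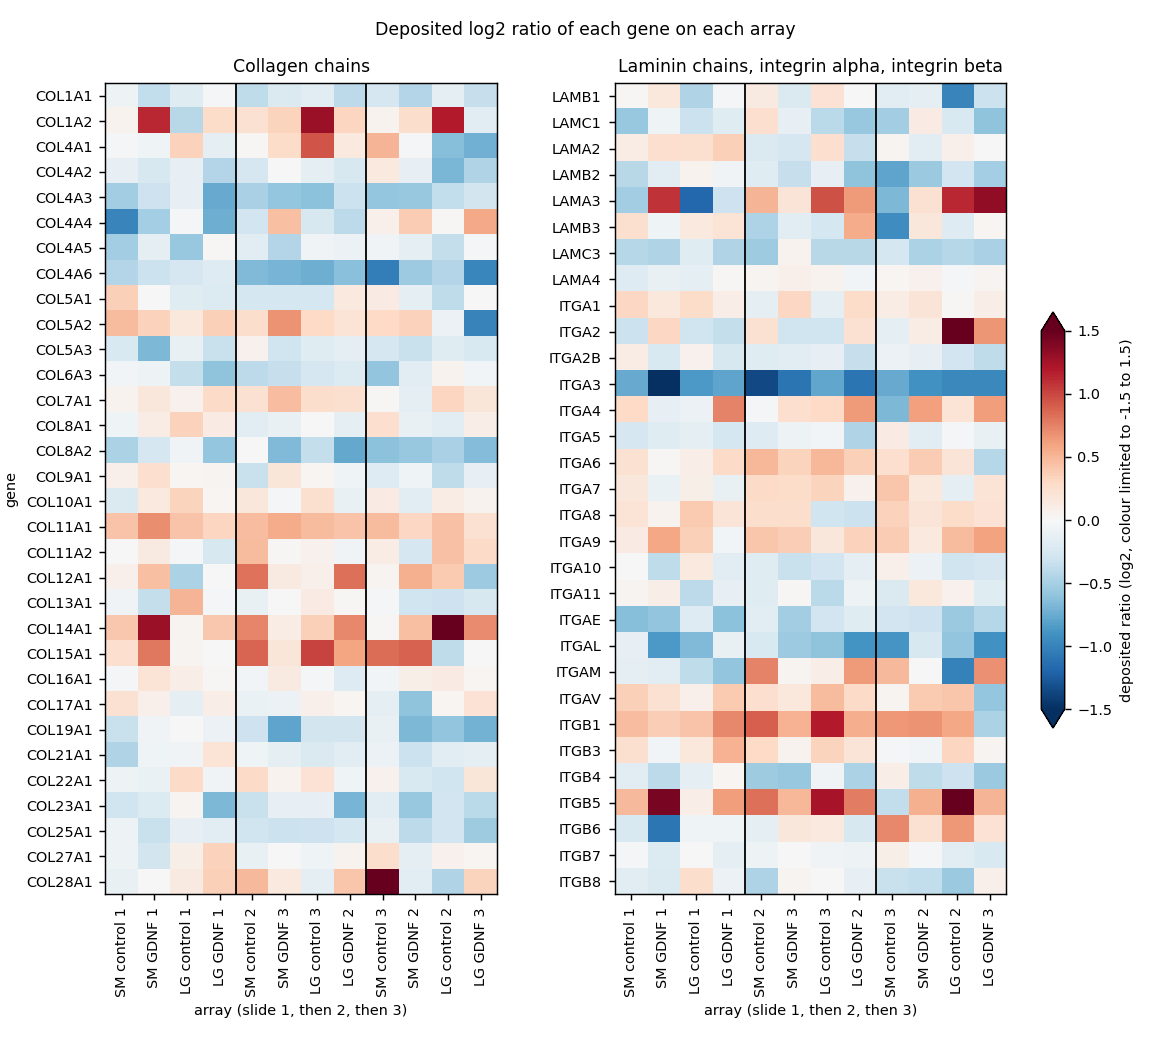
Deposited log2 ratio of each of the 63 genes (vertical) on each of the 12 arrays (horizontal, 4 per slide, black lines between slides), with colour limited to -1.5 to 1.5. As deposited, ITGA3 is blue on every array and COL11A1 red on every array, whereas LAMA3, COL1A2 and ITGB5 change from array to array.

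As deposited, 10 members (15.9%) had a ratio of 1 sign on all 12 arrays, as did 15.4% of all genes. The same held for 0 members and 0.0839% of all genes with slide 1 turned. COL11A1, a minor chain of cartilage fibrils, and COL14A1, a collagen that sits on the surface of fibrils, were above 0 throughout. COL19A1, COL1A1, COL25A1, COL4A3, COL4A6, ITGA3, ITGAE and ITGAL were below 0 throughout. The deposited share is near that of all genes, so it is not a result about these families.

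Among the fibril-forming collagens, the chains of type I collagen differed in their deposited ratios. COL1A1 ratios were -0.07, -0.38 and -0.26 in SM control, -0.37, -0.44 and -0.22 in SM GDNF, -0.18, -0.14 and -0.16 in LG control and -0.02, -0.39 and -0.34 in LG GDNF, for pools 1 to 3 of each group. COL1A2 ratios were 0.06, 0.23 and 0.05 in SM control, 1.13, 0.26 and 0.34 in SM GDNF, -0.41, 1.19 and 1.29 in LG control and 0.27, 0.32 and -0.17 in LG GDNF. COL1A1 was thus slightly below 0 everywhere, and COL1A2 lay between -0.41 and 0.34 except for high values on SM GDNF 1, LG control 2 and LG control 3, so its groups overlapped. COL1A1 is an average of 3 features with means from -0.52 to -0.04 and a median r of 0.038, whereas COL1A2 had 1 feature. The median SD about slide means was 0.166 for members with several features and 0.210 for those with 1. The part of averaging in the narrower range of COL1A1 was not tested. COL5A1, a type V chain that helps set fibril diameter, ran between -0.38 and 0.35. Its partner COL5A2 had ratios of 0.48, 0.27 and 0.30 in SM control, 0.34, 0.34 and 0.68 in SM GDNF, 0.15, -0.09 and 0.30 in LG control and 0.36, 0.21 and -1.003 in LG GDNF. All but LG control 2 and LG GDNF 3 were above 0, and LG GDNF 3 stood alone at the low end.

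Among the type IV collagens, the network of basement membranes, all measured chains but COL4A1 and COL4A4 were below 0 on at least 10 of 12 arrays as deposited. COL4A1 and COL4A2, the chains found in most basement membranes, ran between -0.72 and 0.94 and between -0.69 and 0.15. COL4A3, known from the kidney glomerulus, stayed between -0.75 and -0.12 and COL4A6 between -1.04 and -0.20. COL4A4, the partner of COL4A3, spread further, between -0.99 and 0.57, and COL4A5 lay between -0.56 and 0.01. COL4A1 and COL4A2 were both lowest on the slide 3 arrays LG control 2 and LG GDNF 3.

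Other collagens included COL6A3, a chain of the beaded filaments around cells, which ran between -0.60 and 0.05, and COL7A1, the anchoring fibril of skin, which ran between -0.13 and 0.46. COL12A1 and COL14A1, which decorate fibrils, ran between -0.54 and 0.82 and between 0.02 and 1.72. COL15A1, found next to basement membranes, ran between -0.39 and 1.01 and was clearly below 0 only on LG control 2. COL28A1, a collagen with von Willebrand factor domains, had the widest range of the collagens. Its ratios were -0.11, 0.49 and 1.80 in SM control, 0.00, -0.15 and 0.15 in SM GDNF, 0.13, -0.45 and -0.15 in LG control and 0.36, 0.41 and 0.33 in LG GDNF. The range rests on SM control 3, which was well above every other array. COL8A1, COL10A1, COL11A2, COL13A1, COL16A1, COL21A1 and COL22A1 all stayed between -0.45 and 0.50.

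Among the laminins, LAMA3, the alpha chain of the laminin that anchors epithelia, had the widest range of all 63 members. Its ratios were -0.53, 0.50 and -0.68 in SM control, 1.08, 0.23 and 0.19 in SM GDNF, -1.18, 1.14 and 0.95 in LG control and -0.31, 0.63 and 1.33 in LG GDNF. Slide 1 held the lowest value of each LG group, and each group spanned 0 except SM GDNF, so the groups overlapped. LAMB3, its beta chain, ran between -0.93 and 0.56, lowest on SM control 3. LAMA2, the alpha chain of muscle basement membrane, ran between -0.34 and 0.35, LAMB1 between -0.98 and 0.22, LAMB2 between -0.79 and 0.06 and LAMC1, the common gamma chain, between -0.60 and 0.25. LAMC3 was below 0 on all arrays but SM GDNF 3. LAMA4 hardly moved, between -0.19 and 0.07, but this is the average of 4 features whose own means ran from -0.79 to 0.67.

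Among the integrin alpha subunits, ITGA3, a laminin receptor of epithelia, had the lowest median deposited ratio of the 63 members. Its ratios were -0.76, -1.35 and -0.75 in SM control, -1.90, -0.91 and -1.10 in SM GDNF, -0.86, -0.96 and -0.79 in LG control and -0.79, -1.10 and -0.97 in LG GDNF. All 12 were -0.75 or lower as deposited, and SM GDNF 1 and SM control 2 were lowest, whereas with slide 1 turned its 4 arrays lie above 0. ITGA6, a laminin receptor, and ITGAV, a receptor for ligands with the RGD motif, ran between -0.43 and 0.50 and between -0.58 and 0.48 and were below 0 only on LG GDNF 3. ITGA5, the fibronectin receptor subunit, ran between -0.45 and 0.12 and ITGA9 between -0.05 and 0.60. ITGA2, a collagen receptor, had ratios of -0.32, 0.22 and -0.15 in SM control, 0.31, 0.12 and -0.30 in SM GDNF, -0.30, 2.04 and -0.30 in LG control and -0.36, 0.23 and 0.66 in LG GDNF. It was high on LG control 2, next highest on LG GDNF 3, and between -0.36 and 0.31 on every other array.

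The leukocyte integrin subunits differed in pattern. ITGAM, which pairs with ITGB2 on myeloid cells, had ratios of -0.14, 0.74 and 0.48 in SM control, -0.17, 0.00 and 0.05 in SM GDNF, -0.38, -1.01 and 0.10 in LG control and -0.59, 0.64 and 0.69 in LG GDNF. LG control 2 and LG GDNF 1 were lowest, and SM control 2, LG GDNF 3 and LG GDNF 2 highest. ITGA4, which binds VCAM1 and fibronectin, had ratios of 0.30, -0.03 and -0.68 in SM control, -0.12, 0.62 and 0.25 in SM GDNF, -0.09, 0.20 and 0.30 in LG control and 0.74, 0.64 and 0.63 in LG GDNF. As deposited, the 3 LG GDNF arrays lay above all other arrays, with SM GDNF 2 just below them. LG GDNF 1 becomes the lowest of the 12 with slide 1 turned. ITGAL and ITGAE were below 0 on all arrays. ITGA1, ITGA2B, ITGA7, ITGA8, ITGA10 and ITGA11 all stayed between -0.41 and 0.42.

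Among the integrin beta subunits, ITGB1, the beta chain shared by most matrix receptors, had ratios of 0.46, 0.89 and 0.65 in SM control, 0.37, 0.67 and 0.52 in SM GDNF, 0.43, 0.58 and 1.19 in LG control and 0.72, 0.55 and -0.47 in LG GDNF. It was at least 0.37 on every array but LG GDNF 3, where it was below 0, and highest on LG control 3. ITGB5, a partner of ITGAV that binds vitronectin, had ratios of 0.49, 0.83 and -0.37 in SM control, 1.43, 0.53 and 0.50 in SM GDNF, 0.10, 1.59 and 1.23 in LG control and 0.63, 0.76 and 0.51 in LG GDNF. Its high arrays were LG control 2, SM GDNF 1 and LG control 3, the arrays on which COL1A2 was also high, and SM control 3 was lowest. ITGB6 ran between -1.09 and 0.73 with its lowest value on SM GDNF 1, ITGB3 ran between -0.04 and 0.52, ITGB4 between -0.57 and 0.10, ITGB7 between -0.23 and 0.09 and ITGB8 between -0.56 and 0.27.

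COL3A1, COL6A1, COL18A1, LAMA1, LAMA5 and ITGB2 had no feature with a gene name here and were not analysed.

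No member passed the test in any of the 5 comparisons. Each was fitted over all genes with limma, slide as a block, and Benjamini-Hochberg adjustment over 11912 genes. At an adjusted p under 0.05, 0 of 63 members and 0.0% of all genes were called, in every comparison and in the fits with slide 1 turned or left out. The median SE of a simple difference over all genes was 0.196 and of the interaction 0.277, so with 3 arrays a group differences of that size could not be told from the spread. The comparisons share arrays and are not independent of each other.

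At an unadjusted p under 0.05 the share of members called was below that of all genes in each comparison of the ratios as deposited. GDNF against control in SM called 0 of 63 members against 2.34% of all genes. GDNF against control in LG called 1 member (1.59%) against 7.57%. LG against SM without GDNF called 1 against 7.1%, and with GDNF 1 against 2.41%. The interaction of class and GDNF called 2 (3.17%) against 4.19%. These differences in share were not tested.

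Over slides 2 and 3 alone, or with slide 1 turned, the members' counts were higher, except for class with GDNF on slides 2 and 3, which stayed at 1. With slides 2 and 3 alone, 3 members were called for GDNF in SM, against 1.18% of all genes, and 3 for GDNF in LG, against 5.13%. LG against SM called 5 without GDNF, against 4.48%, and 1 with GDNF, against 1.79%, and the interaction called 3, against 3.44%. With slide 1 turned, the counts were 3, 5, 5, 3 and 4 members in the same order, against 2.1%, 4.79%, 3.87%, 4.11% and 4.39% of all genes. A share of 5 in 63 is 7.94%, so the counts rest on a few genes each. Called only with slide 1 turned were COL19A1 for GDNF in SM, COL4A3 and ITGAV for GDNF in LG, COL6A3 for class without GDNF, ITGAL and LAMA3 for class with GDNF, and ITGAL and ITGAV for the interaction. The others are described with their comparison below.

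**Figure D2:**
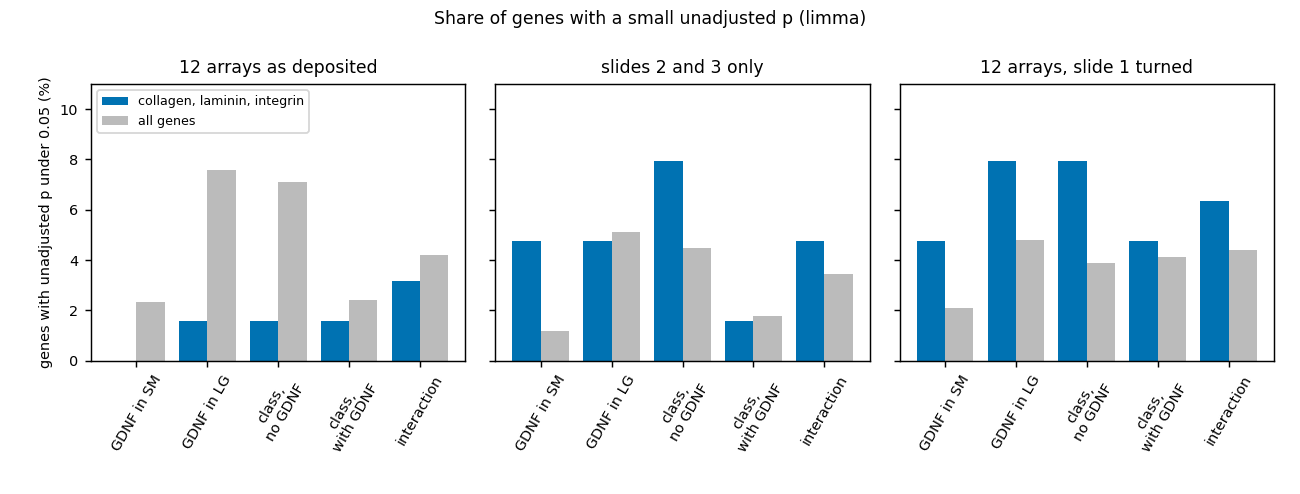
Percentage of the 63 members (blue) and of all 11912 genes (grey) with an unadjusted limma p under 0.05 in the 5 comparisons, for the ratios as deposited, slides 2 and 3 only, and slide 1 turned. The members are below all genes in all 5 comparisons on the left and above them in all 5 on the right.

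GDNF against control asked what the added factor did within each class. In SM oocytes the difference had the same side on slides 2 and 3 for 29 members (46.0%), against 37.1% of all genes, and the members' median difference was -0.04 against 0.00. The smallest p values belonged to COL5A3, COL4A4, COL9A1, COL28A1 and ITGA4, all with an adjusted p of 1 after rounding. COL5A3, the third type V chain, differed by -0.29 (SE 0.14), with slide differences of -0.44, -0.36 and -0.08. COL4A4 differed by 0.51 (SE 0.26), with 0.48, 0.73 and 0.31, and COL9A1, a fibril-associated cartilage collagen, by 0.28 (SE 0.14), with 0.18, 0.52 and 0.13. These 3 kept their side on all 3 slides as deposited. COL5A3 went to 0.0008, COL4A4 to 0.19 and COL9A1 to 0.15 with slide 1 turned. COL4A4 differed by 0.29 without SM GDNF 3, and COL9A1 by 0.15 without SM control 2. COL28A1 differed by -0.73 (SE 0.39), with slide differences of 0.11, -0.35 and -1.96, and by -0.11 without SM control 3. ITGA4 differed by 0.39 (SE 0.27), with -0.41, 0.28 and 1.30, and by 0.05 without SM control 3. On slides 2 and 3 alone COL28A1 reached an unadjusted p of 0.035, ITGA4 0.0267 and LAMB3 0.0421. For LAMB3 the difference there was 0.70 (SE 0.27), and over 12 arrays it was 0.11 without SM control 3, so all 3 of these genes rested on that array. Without SM GDNF 2, ITGA4 differed by 0.12 and LAMB3 by 0.12.

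In LG oocytes more members had a difference below 0 than above it. As deposited, the difference of GDNF against control was below 0 for 45 of 63 members, with a median of -0.08, against 6371 of 11912 genes and a median of -0.02. The members' median was -0.05, -0.10 and -0.07 on slides 1, 2 and 3, against 0.00, -0.01 and -0.04 for all genes. By family, 23 of 32 collagens, 4 of 8 laminins, 12 of 16 integrin alpha and 6 of 7 integrin beta subunits were below 0. On slides 2 and 3 alone 40 of 63 members were below 0, against 6476 of 11912 genes, and with slide 1 turned 38 were, against 6354. By family, in the same order, these were 20, 6, 8 and 6 on slides 2 and 3 and 19, 5, 9 and 5 with slide 1 turned. A total of 38 members (60.3%) kept their side on slides 2 and 3, against 53.4% of all genes. The members' median was -0.05 on slides 2 and 3 alone, where that of all genes was -0.03, and -0.04 with slide 1 turned, where that of all genes was -0.02. As deposited, it was -0.04 without LG control 1 and -0.05 without LG GDNF 3. The lean was not tested. The SE of a single gene does not measure the spread of a median or of a count over the members.

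COL23A1, a collagen that spans the cell membrane, had the smallest p in LG oocytes. Its ratios were -0.30, -0.33 and -0.15 in SM control, -0.21, -0.57 and -0.12 in SM GDNF, 0.05, -0.29 and -0.12 in LG control and -0.67, -0.69 and -0.40 in LG GDNF. As deposited, all 3 LG GDNF arrays were below the 3 LG control arrays, and the difference was -0.46 (SE 0.17), with an unadjusted p of 0.0238 and an adjusted p of 0.646 (limma). The slide differences were -0.72, -0.57 and -0.11, and with slide 1 turned the estimate was 0.01. ITGAM differed by 0.67 (SE 0.31), with slide differences of -0.21, 0.53 and 1.70. Without LG control 2 it differed by 0.28, and without LG GDNF 3 by 0.38. COL8A2, a network collagen of the cornea, differed by -0.37 (SE 0.19), with slide differences of -0.53, -0.41 and -0.17. ITGA4 differed by 0.53 (SE 0.27), with slide differences of 0.83, 0.34 and 0.43, and LAMB2, the laminin beta chain of the glomerulus and synapse, by -0.27 (SE 0.16), with -0.11, -0.49 and -0.22. As deposited, COL8A2, ITGA4 and LAMB2 kept their side on all 3 slides, with adjusted p values of 0.692, 0.692 and 0.737, and with slide 1 turned they came to -0.01, -0.02 and -0.20. Without LG GDNF 2, LAMB2 differed by -0.12.

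On slides 2 and 3 alone, COL1A2, ITGAM and ITGB1 had small p values for GDNF in LG oocytes. COL1A2 differed by -1.16 (SE 0.19), with an unadjusted p of 0.000965 and an adjusted p of 0.884 (limma). Its slide differences were 0.68, -0.97 and -1.35, so slide 1 lay on the other side of 0, and the estimate over 12 arrays was -0.55 (SE 0.42). Over 12 arrays it was -0.18 without LG control 2, -0.25 without LG control 3 and -1.20 without LG control 1. ITGB1 differed by -0.84 (SE 0.30) on slides 2 and 3, with slide differences of 0.29, -0.64 and -1.05. Over 12 arrays ITGB1 differed by -0.47 (SE 0.28), by -0.10 without LG GDNF 3 and by -0.80 without LG GDNF 1.

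LG against SM compared the oocyte classes. Without GDNF, 24 members (38.1%) had the same side on slides 2 and 3, against 46.2% of all genes, and the members' median difference was 0.04 against 0.00. ITGAM had the smallest p, with a difference of -0.79 (SE 0.31), an unadjusted p of 0.0286 and an adjusted p of 0.673 (limma). Its slide differences were -0.24, -0.64 and -1.50, all below 0 as deposited, and without LG control 2 the difference was -0.40. COL28A1 differed by -0.88 (SE 0.39), with slide differences of 0.24, -0.64 and -2.26, and by -0.27 without SM control 3. LAMB2 differed by 0.35 (SE 0.16), with 0.48, 0.07 and 0.50, on 1 side throughout as deposited. COL5A1 differed by -0.35 (SE 0.18), with -0.54, 0.00 and -0.50, and LAMB1 by -0.40 (SE 0.22), with -0.47, 0.09 and -0.83. With slide 1 turned, LAMB2 came to 0.03, COL5A1 to 0.01 and LAMB1 to -0.09. Without LG control 2, LAMB1 differed by -0.18.

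On slides 2 and 3 alone 5 members had small p values for class without GDNF: COL1A2, COL28A1, ITGAM, ITGB5 and LAMA3. COL1A2 differed by 1.10 (SE 0.19) there, with an unadjusted p of 0.00129 and an adjusted p of 0.902 (limma). Its slide differences were -0.47, 1.06 and 1.14. ITGB5 differed by 1.18 (SE 0.38), with slide differences of -0.39, 0.40 and 1.96, and LAMA3 by 1.13 (SE 0.43), with -0.65, 0.45 and 1.81. All 3 genes had slide 1 on the opposite side, and over 12 arrays without LG control 2 their differences were 0.21, 0.17 and 0.13. LAMA3 was also at 0.09 without SM control 3.

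With GDNF in both classes, the members' median difference of LG against SM was 0.00 against 0.00 for all genes. The same side on slides 2 and 3 was found for 33 members (52.4%), against 45.5% of all genes. COL5A2 had the smallest p, with a difference of -0.60 (SE 0.26), an unadjusted p of 0.0428 and an adjusted p of 1 (limma). Its slide differences were 0.02, -0.47 and -1.35, and without LG GDNF 3, its lowest array, the difference was -0.23. LAMC1 differed by -0.43 (SE 0.23), with slide differences of -0.11, -0.44 and -0.73, below 0 on every slide as deposited and -0.35 with slide 1 turned. COL27A1, a fibrillar collagen of cartilage, differed by 0.28 (SE 0.16), with 0.63, 0.06 and 0.16, and ITGB3, the beta subunit of the platelet fibrinogen receptor, by 0.26 (SE 0.15), with 0.56, 0.14 and 0.08. Both had their widest difference on slide 1, and they came to -0.13 and -0.11 with that slide turned. COL17A1, a hemidesmosome collagen, differed by 0.32 (SE 0.19), with 0.01, 0.12 and 0.82, and by 0.12 without SM GDNF 2.

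The interaction asked whether the GDNF difference was the same in both classes, and the members' median interaction was -0.02 against -0.02 for all genes. ITGAM had the smallest p, with an interaction of 1.08 (SE 0.43) and an adjusted p of 0.991 (limma), and slide values of -0.18, 1.23 and 2.19. Without LG control 2 it was 0.68. COL28A1 had an interaction of 1.25 (SE 0.56), with 0.11, 0.91 and 2.74, and of 0.64 without SM control 3. COL5A1 had 0.47 (SE 0.25), with slide values of 0.34, 0.41 and 0.66, and COL1A2 -1.01 (SE 0.59), with -0.39, -1.08 and -1.56. Both lay on 1 side on every slide as deposited, and with slide 1 turned they came to 0.24 and -0.75. COL1A2 moved to -0.56 without SM GDNF 1 and -1.67 without LG control 1. COL23A1 had -0.43 (SE 0.24), with -0.81, -0.79 and 0.30. The same side on slides 2 and 3 was found for 28 members (44.4%), against 43.9% of all genes. No interaction passed the adjusted threshold.

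**Figure D3:**
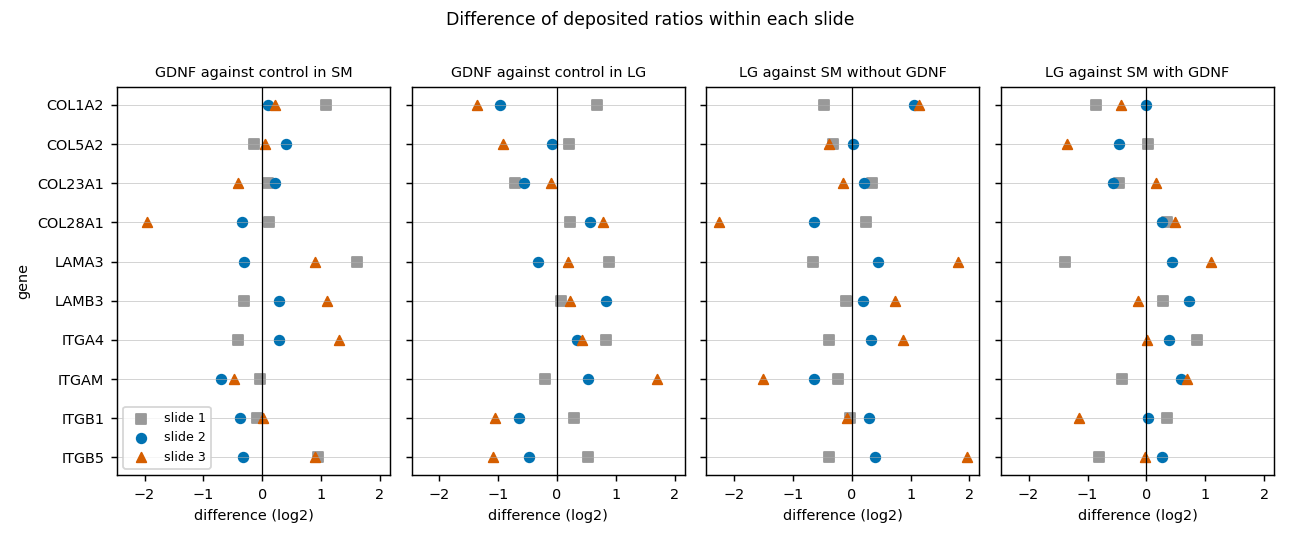
Difference of deposited ratios (log2) within slide 1 (squares), slide 2 (circles) and slide 3 (triangles) for 10 named members in the 4 simple comparisons. As deposited, COL23A1 under GDNF in LG lies below 0 on all 3 slides, whereas COL1A2, ITGB1 and ITGB5 in that comparison have slide 1 above 0 and slides 2 and 3 below.

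The features of 1 gene often did not follow each other, and several of the widest values above came from a single feature. Over the 20 members with several features, the median correlation between features about their slide means was 0.146 across 12 arrays, and 2 members (10%) were above 0.5. Over the 3326 genes with several features the median was 0.108, and 17.6% were above 0.5. Among the members the features of ITGA2, COL4A1, COL12A1, ITGB1 and ITGB6 differed most.

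ITGB1 was read by 2 features. The first gave 0.69, 1.06 and 0.56 in SM control, 0.36, 0.63 and 0.39 in SM GDNF, -0.02, 0.66 and 1.67 in LG control and 0.59, 0.83 and -1.46 in LG GDNF. The second gave 0.23, 0.73 and 0.74 in SM control, 0.37, 0.70 and 0.65 in SM GDNF, 0.88, 0.49 and 0.70 in LG control and 0.85, 0.27 and 0.51 in LG GDNF. The first lay above 0 on 10 arrays and the second on all 12, but the low value on LG GDNF 3 and the high value on LG control 3 were in the first feature alone, and the correlation between them was 0.084. The same array set apart 1 of the 2 features of ITGA6, at -0.90 against 0.04. Both features of ITGAV had their lowest value there, -0.92 and -0.24, with a correlation of 0.516 between them.

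COL4A1 also had 1 wide and 1 narrow feature. The wide feature read 1.83 on LG control 3, -1.32 on LG control 2 and -1.55 on LG GDNF 3. The narrow feature read 0.05, 0.04 and 0.12 on the same arrays. ITGA2 was read by 4 features, which gave 4.11, 3.23, 0.76 and 0.08 on LG control 2. The high ITGA2 value of that array was therefore in 2 of its 4 features. COL12A1 was read by 3 features, of which 2 varied together and 1 stayed -0.13 to 0.25 across all arrays, and the low ITGB6 value on SM GDNF 1 was -2.01 in 1 feature and -0.17 in the other. COL1A2 and LAMA3 had 1 feature each, so their ratios could not be compared in this way.

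**Figure D4:**
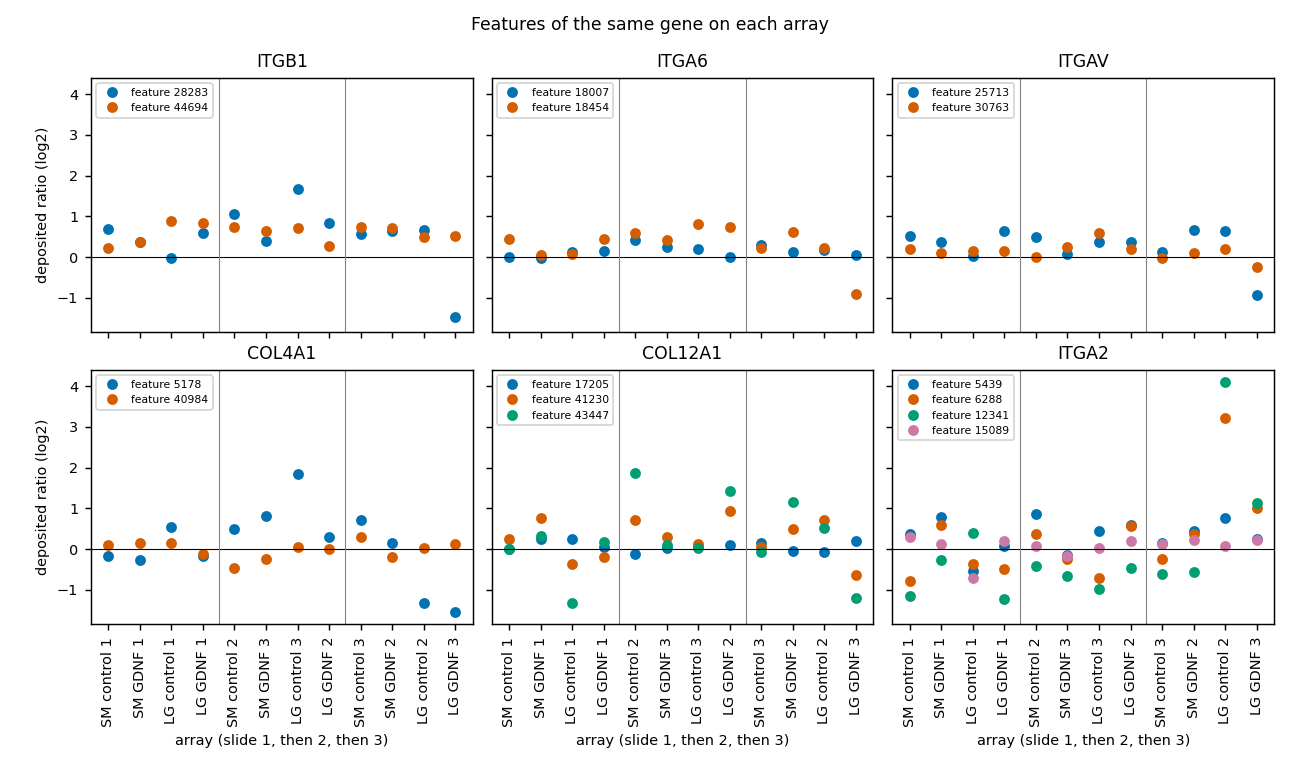
Deposited log2 ratio of every feature of ITGB1, ITGA6, ITGAV, COL4A1, COL12A1 and ITGA2 on the 12 arrays (4 per slide, grey lines between slides), 1 colour per feature. On LG GDNF 3 only 1 ITGB1 feature is low, at -1.46 against 0.51, and on LG control 2 only 2 of the 4 ITGA2 features are high.

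Chains that assemble with each other were compared through their co-variation, which does not depend on the way an array runs, since turning a whole slide turns both genes. Of 39 listed partner pairs, 26 had both chains measured. Their median correlation of ratios about the slide means was 0.18 over 12 arrays, against 0.02 over all 1953 pairs of members and 0.0 over all pairs of genes. Above r = 0.5 were 4 of 26 partner pairs (15.4%), 9.22% of member pairs and 9.51% of gene pairs. These are descriptions, since the arrays share the reference and the pairs share genes.

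The integrin pairs gave the highest values. ITGA6 and ITGB1, which form a laminin receptor, had r = 0.93 (rho 0.87), 0.74 without LG GDNF 3. Over 12 arrays, 2 of the other 11911 genes followed ITGB1 more closely and 14 followed ITGA6 more closely. These ranks were not computed without LG GDNF 3. ITGAV and ITGB1 had r = 0.86 (rho 0.73), 0.51 without LG GDNF 3, and ITGA6 and ITGB4, the hemidesmosome receptor, r = 0.56 (rho 0.62), 0.41 without that array. All 3 r values were lower without LG GDNF 3, the array on which 1 feature of ITGB1, 1 of ITGA6 and both of ITGAV were low. Leaving out the 2 arrays farthest from the median of the first gene gave 0.83, 0.68 and 0.30. ITGAV had r = 0.38 with ITGB5 and 0.37 with ITGB3, and these became 0.67 and 0.59 without LG GDNF 3. Not every integrin pair ran together: ITGA9 and ITGB1 had r = -0.61 (rho -0.69), ITGA1 and ITGB1 -0.43 (rho -0.45) and ITGAV and ITGB8 -0.65 (rho -0.48). Without LG GDNF 3 these were -0.57, -0.80 and -0.32, and without the 2 farthest arrays -0.67, -0.38 and -0.27.

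Among the collagens, COL4A1 and COL4A2, which are neighbouring genes in the pig annotation, had r = 0.78 (rho 0.81). Leaving out LG control 2 and LG GDNF 3 gave 0.54, and leaving out the 2 arrays farthest from the median of COL4A1 gave 0.78. COL4A1 is an average of 2 features with r = 0.25 between them. Its low values on LG control 2 and LG GDNF 3 were in its wide feature alone. The r of each feature with COL4A2 was not computed. The other neighbouring type IV pairs were lower, with 0.36 for COL4A3 and COL4A4 and -0.20 for COL4A5 and COL4A6. COL1A1 and COL1A2 had r = 0.14 (rho 0.24), and -0.15 without LG control 2 and LG GDNF 3. Their r was 0.69 without the 2 arrays farthest from the median of COL1A1, SM GDNF 1 and SM GDNF 2. COL5A1 and COL5A2 had r = -0.02 and COL11A1 and COL11A2 0.34. Without LG control 2 and LG GDNF 3 these were 0.03 and 0.53. Among the laminins, LAMA3 and LAMB3 had 0.24, LAMA2 and LAMB1 0.04 and LAMB1 and LAMC1 0.03. The r values between chains of 1 trimer were thus mostly low on these arrays. Features of the same gene had a median r of only 0.146 over the members with several features. A low r therefore cannot show that the chains varied apart.

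**Figure D5:**
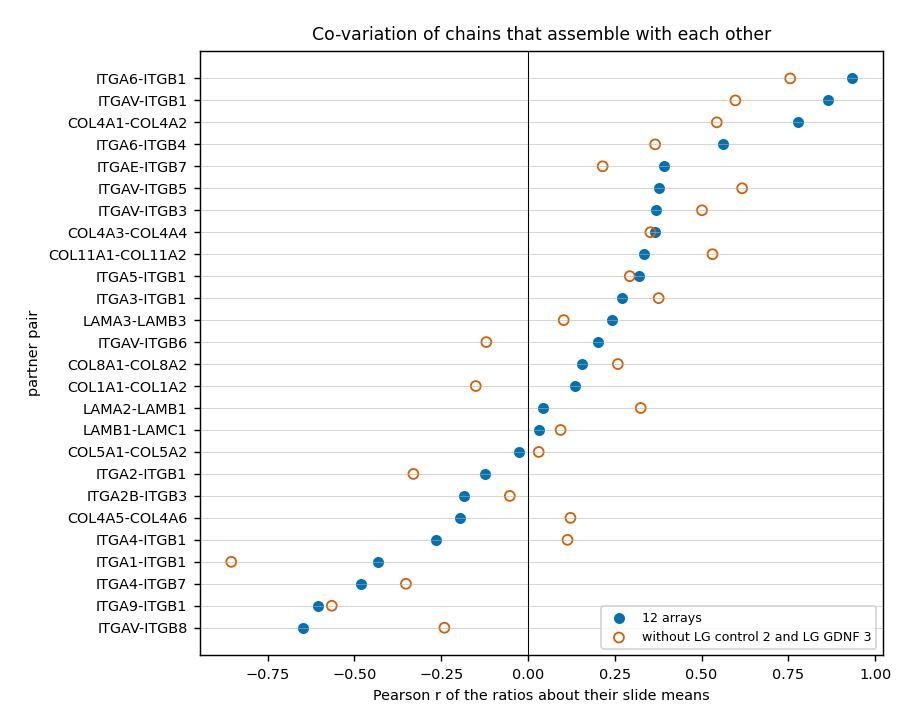
Pearson r (horizontal) of the ratios about their slide means for the 26 measured partner pairs (vertical), over 12 arrays (filled) and without LG control 2 and LG GDNF 3 (open). ITGA6-ITGB1, ITGAV-ITGB1 and COL4A1-COL4A2 are highest, and 17 of the 26 filled points lie above 0.

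Some members that do not assemble also shared their high arrays. COL14A1 and ITGA2 had r = 0.928, COL14A1 and ITGB5 0.905, ITGB5 and LAMA3 0.857 and COL1A2 and ITGB5 0.850 about their slide means. On SM GDNF 1 and LG control 2 the 4 genes COL14A1, COL1A2, ITGB5 and LAMA3 were all above 1. Without LG control 2 the r values of these pairs were 0.892, 0.824, 0.919 and 0.771, and without both LG control 2 and LG GDNF 3 they were 0.908, 0.809, 0.967 and 0.863. Without SM GDNF 1 they were 0.953, 0.872, 0.807 and 0.794. They were not computed with SM GDNF 1 and LG control 2 left out together, so each value still includes 1 of these shared high arrays. The high ITGA2 value on LG control 2 was in 2 of its 4 features. These pairs were picked after their values were seen, from 1953.

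The other genes of matrix assembly and adhesion gave no adjusted call either. In collagen processing, 18 of 28 listed genes were measured and 6 of 90 tests over the 5 comparisons had an unadjusted p under 0.05, 6.67%, 1 with a difference above 0 and 5 below. Other matrix ligands gave 5 of 120 tests (4.17%) from 24 of 30 genes, 2 above and 3 below, and integrin adaptors 6 of 85 (7.06%) from 17 of 29, 1 above and 5 below. Other matrix receptors gave 4 of 85 (4.71%) from 17 of 21, 1 above and 3 below, and matrix proteases and their inhibitors 5 of 100 (5.0%) from 20 of 25, 4 above and 1 below. Over all genes 2813 of 59560 tests, 4.72%, were below that threshold, and the difference of the lists' shares from it was not tested. The comparisons share arrays, so a gene can be counted more than once, as ADAMTS2 and ACTN4 were. The sides pool comparisons of different meaning: ACTN4 differed by 0.96 for class without GDNF and by -0.76 for GDNF in LG. The smallest adjusted p in each list was 0.646 (limma).

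Of these genes, 11 had an unadjusted limma p under 0.05 for GDNF in LG oocytes, 7 below 0 and 4 above. By list, these were 1 of 18 genes of collagen processing, 2 of 24 other ligands and 3 of 17 adaptors. Other receptors gave 1 above and 1 below of 17, and proteases and inhibitors 3 of 20. The share of all genes was 7.57%, and the difference of the lists from it was not tested. All 11 kept 1 side of 0 on the 3 slides as deposited, which a small p in a fit over these slides favours. ACTN1, an actinin that links integrins to actin, differed by -0.69 (SE 0.19; slide differences -0.35, -0.59 and -1.14). TLN1, the talin that binds integrin beta tails, differed by -0.51 (SE 0.19; slide differences -0.44, -0.63 and -0.46). DDR2, a receptor kinase for fibrillar collagen, differed by -0.44 (SE 0.13; slide differences -0.41, -0.32 and -0.58), and in SM oocytes by -0.34 (SE 0.13; slide differences -0.41, -0.45 and -0.16). ADAMTS2, which trims procollagen, differed by -0.46 (SE 0.16; slide differences -0.54, -0.64 and -0.19), and FBN2, a microfibril protein, by -0.74 (SE 0.23; slide differences -0.84, -1.04 and -0.32). ACTN4, another actinin, differed by -0.76 (SE 0.32; slide differences -1.54, -0.49 and -0.24), and PXDN, a basement membrane peroxidase, by -1.35 (SE 0.56; slide differences -1.38, -2.11 and -0.56). On the other side were CD47, an integrin-associated protein, at 0.95 (SE 0.35; slide differences 1.00, 0.68 and 1.17), and the metalloproteinase MMP9 at 0.48 (SE 0.20; slide differences 0.38, 0.38 and 0.67). MMP19 was at 0.43 (SE 0.16; slide differences 0.57, 0.05 and 0.67) and TIMP3, an inhibitor of metalloproteinases, at 0.34 (SE 0.14; slide differences 0.10, 0.35 and 0.58). With slide 1 turned, the LG differences were -0.46 for ACTN1, -0.22 for TLN1, -0.16 for DDR2, -0.10 for ADAMTS2, -0.17 for FBN2 and -0.43 for PXDN, and ACTN4 changed side, to 0.27. They were 0.28 for CD47, 0.22 for MMP9, 0.05 for MMP19 and 0.28 for TIMP3. These 11 genes were named from the list results because of their values, and they passed no adjusted threshold.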

How the data were processed

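The authors deposited 1 table of log2 ratios, 45220 features on 12 two-channel arrays of pig oocyte pools against a common reference. The base is taken as 2. No statement of it, or of the background correction, normalization and orientation, was found in the sources used here. Features were named by the platform annotation, updated to RefSeq symbols by accession or synonym (Sscrofa11.1 for names only): 18121 had 1 symbol and 27099 none, giving 11912 genes. Features of a gene were averaged. No filter on dim spots was possible. No genome build is given, so no coordinates or sequences are shown.

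Differences were fitted with limma 3.58.1 in R 4.3.3 (lmFit, eBayes; 4 groups, slide as a block, 6 residual degrees of freedom), two-sided, with Benjamini-Hochberg adjustment over all genes, and the fit was tested on simulated data. Genes named are the 5 with the smallest p in each comparison, those chosen for their role, those with the widest range or the most different features, and partner chains. Genes with an unadjusted p under 0.05 on slides 2 and 3, the top pairs and the genes of the other lists were named after their values were seen. Members and lists were chosen with earlier results of these data known. Alternatives were slides 2 and 3 only, slide 1 turned, no slide block, pool number as block, quantile normalization, array weights, the median of features, and leaving out arrays.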

Additional observations from a re-analysis of the deposited data

How the results depend on the processing

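Each count of members with an unadjusted p under 0.05, each median difference and 31 named differences were recomputed under 20 alternatives. No alternative gave a member an adjusted p under 0.05. Of 620 named differences under alternatives, 612 kept their side of 0 and 8 did not. With slide 1 turned, 7 changed side: for GDNF in SM, COL5A3 (0.0007995). For GDNF in LG these were COL23A1 (0.0131) and ITGA4 (-0.022), for class without GDNF COL5A1 (0.0126), for class with GDNF COL27A1 (-0.13) and ITGB3 (-0.11), and for the interaction COL23A1 (0.11). LAMA3, for class without GDNF, came to -0.0615 without LG control 2 and LG GDNF 3.

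The counts of members, given for GDNF in SM, GDNF in LG, class without GDNF, class with GDNF and the interaction, were 0, 1, 1, 1 and 2 as reported. They were 3, 3, 5, 1 and 3 on slides 2 and 3 only and 3, 5, 5, 3 and 4 with slide 1 turned. Array weights gave 0, 8, 3, 1 and 4, the median of features 0, 1, 2, 1 and 3, and quantile normalization 0, 1, 1, 1 and 1. Without a slide block they were 0, 1, 1, 0 and 1, and without LG control 2 and LG GDNF 3 they were 0, 2, 1, 0 and 2. Leaving out 1 array at a time gave 0 to 4, 0 to 3, 0 to 4, 0 to 3 and 0 to 4. Under array weights the share of all genes was 17.2% for GDNF in LG and 4.32% for GDNF in SM. For GDNF in SM it was 2.34% as reported, 2.41% with the median of features and 2.74% with quantile normalization. It was 2.24% without a slide block, 2.54% without LG control 2 and LG GDNF 3, and 1.75% to 5.78% leaving out 1 array at a time. The other shares are not given here, so these changes in count are not a result about the members. On slides 2 and 3, or with slide 1 turned, the members' counts for both GDNF comparisons and class without GDNF went up while the share of all genes went down. The cause of these changes was not tested. With the pool number as replicate block in place of the slide, the counts were 0, 1, 2, 0 and 3. Arrays of the same pool number on different slides correlated between -0.50 and 0.40 in their deviations from the group means (8 pairs, median 0.03). Arrays of different groups on the same slide correlated between -0.44 and 0.58 (18 pairs, median 0.10). Those sharing neither slide nor pool number correlated between -0.46 and 0.34 (28 pairs, median -0.10). These ranges overlap, so they cannot show whether the pool numbers mark a pairing. The median difference of the members for class without GDNF was 0.04 as reported and -0.03 with slide 1 turned, and for class with GDNF it was 0.00 and -0.03. With 3 arrays a group, the number of arrays limits the precision, and signal over background was not used here.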
